A study of Homo sapiens with 12 samples.

Results

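The integrin and laminin genes were followed through parental and drug-resistant head and neck squamous cell carcinoma cells. The set held every protein-coding gene whose symbol names an integrin alpha chain, an integrin beta chain or a laminin chain, which gave 38 of the 58051 gene identifiers counted. Of these, 18 encode integrin alpha chains, 8 integrin beta chains and 12 laminin chains. The cells were FaDu, an established line from a hypopharyngeal squamous cell carcinoma, and Cal27, an established line from a tongue squamous cell carcinoma, both labelled WT. Each line was sequenced as parental cells, as afatinib-resistant cells (AfaR; afatinib inhibits the ERBB receptor family) and as erlotinib-resistant cells (ErlR; erlotinib inhibits EGFR). Per the study's methods, resistance was selected by rising drug doses, so that each resistant model is 1 selected population, and resistant stocks were kept in drug but grown without it for a day before experiments. Each of the 6 groups had 2 libraries, which the labels call biological replicates without saying how they were separated, so p-values measure the spread between these 12 libraries, which may be technical. The question was how the adhesion receptors and their laminin ligands differed in each resistant model from the parental cells of its own line.

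Integrins are cell-surface receptors made of an alpha and a beta chain, and the pairing decides which matrix protein is bound. Laminins are secreted trimers of an alpha, a beta and a gamma chain that form the base of the basement membrane. In squamous epithelium LAMA3 and LAMB3 are chains of laminin-332, which is bound by ITGA6 with ITGB4 in hemidesmosomes and by ITGA3 with ITGB1. ITGA5 with ITGB1 binds fibronectin, while ITGAV pairs with ITGB5, ITGB6 or ITGB8 to bind vitronectin or the latent form of TGF-beta. ITGB2 is the beta chain of leukocyte integrins.

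The promoter sequences of 3 members are shown because they hold the motif TGANTCA, the usual site of the AP-1 transcription factors, and because these members include chains that moved in opposite directions in Cal27 AfaR. Windows of 300 bases, from 250 before to 50 after an annotated start, were taken from RefSeq (GRCh38.p14) and matched 26 of the 38 members in 33 windows, the others including LAMC3, LAMA1, ITGA3, ITGA7, ITGA9, ITGAD, ITGAL, ITGAX, ITGB2, ITGB3 and ITGB4. The ITGA5 window is chr12:54419217-54419516 on the minus strand, the LAMA3 window chr18:23872770-23873069 on the plus strand at an internal start 183577 bases into the gene, and the LAMB3 window chr1:209651325-209651624 on the minus strand, at an internal start 1092 bases into the gene. The other 2 LAMB3 windows, with starts 137 and 41 bases into the gene, hold 0 copies of the motif. Each is printed 5′ to 3′ in the direction of transcription, with the motif in capitals.
ITGA5: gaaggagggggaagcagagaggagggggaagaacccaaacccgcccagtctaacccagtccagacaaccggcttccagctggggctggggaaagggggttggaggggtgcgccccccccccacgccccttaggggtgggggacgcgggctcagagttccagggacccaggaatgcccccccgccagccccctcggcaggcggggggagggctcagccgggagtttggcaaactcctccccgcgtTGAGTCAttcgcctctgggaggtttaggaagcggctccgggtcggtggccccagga
LAMA3: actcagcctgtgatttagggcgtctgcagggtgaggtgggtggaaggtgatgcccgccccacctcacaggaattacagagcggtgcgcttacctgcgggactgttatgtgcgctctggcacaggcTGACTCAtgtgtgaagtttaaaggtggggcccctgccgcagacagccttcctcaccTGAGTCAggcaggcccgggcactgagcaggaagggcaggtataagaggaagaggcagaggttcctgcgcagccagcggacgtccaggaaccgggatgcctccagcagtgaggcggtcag
LAMB3: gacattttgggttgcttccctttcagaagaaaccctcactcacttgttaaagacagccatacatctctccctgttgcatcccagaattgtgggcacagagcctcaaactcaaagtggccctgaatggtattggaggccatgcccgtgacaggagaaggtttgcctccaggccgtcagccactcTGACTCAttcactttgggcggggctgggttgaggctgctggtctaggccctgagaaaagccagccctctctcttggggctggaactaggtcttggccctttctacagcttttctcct
The motif began 6 bases before the start in ITGA5, 125 and 69 bases before it in LAMA3, and 67 bases before it in LAMB3. It was present in 9.09% of the member windows and in 7.71% of all 35116 RefSeq windows of this length, so that these promoters did not stand out by share. The E-box CAGGTG, searched on both strands, was found in 8 of the 26 members, in 24.2% of the member windows and 20.6% of all windows. The GC box GGGCGG was found in 14 of the 26, in 57.6% of the member windows and 45% of all windows. A match describes the letters of the window and is not evidence that a factor bound there.

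Each library held 16334937 to 23399259 reads assigned to genes. The edgeR biological coefficient of variation came to 14.5% for the FaDu libraries and 15.3% for those of Cal27. All 10 squamous epithelial markers were at 1 CPM or more in every group. Their summed level was 4212 to 5418 CPM in Cal27 parental, 1008 to 1115 CPM in Cal27 AfaR and 5282 to 5358 CPM in Cal27 ErlR, and it lay between 6831 and 13780 CPM over the FaDu libraries. In bulk RNA, fewer cells of a type and less RNA per cell cannot be told apart. Several members varied widely between the libraries of the ErlR groups, where FaDu ErlR replicate 2 and Cal27 ErlR replicate 1 were the higher ones for LAMB3, LAMA3, ITGA6 and ITGA2. Values are CPM (counts scaled to a common library size of 1e6) after TMM normalization over all 12 libraries, given for each library or as mean ± SD (n = 2), and a gene was called at an edgeR adjusted p-value under 0.05 with a log2 fold change over 1 in size.

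Cal27 AfaR carried most of the changes of these genes. There, 16 of the 29 members tested were called, 7 higher and 9 lower, where 19.6% of all 15269 genes tested were called (11.5% higher and 8.06% lower). In Cal27 ErlR, 6 of 29 were called, 3 higher and 3 lower, against 13.5% of all genes (3.56% higher and 9.92% lower). In FaDu AfaR, 2 of 29 were called, both higher, against 7.43% of 15092 genes (6.48% higher), and in FaDu ErlR, 2 of 29, 1 in each direction, against 2.05% (1.54% higher and 0.504% lower). As shares of the members tested these counts were 55.2% in Cal27 AfaR, 20.7% in Cal27 ErlR and 6.90% in each FaDu model. The median log2 fold change of the tested members was 0.24 for the AfaR model and 0.28 for the ErlR model of FaDu, and 0.10 and -0.24 for those of Cal27, with the median of all genes tested between -0.03 and 0 in each.

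**Figure D1:**
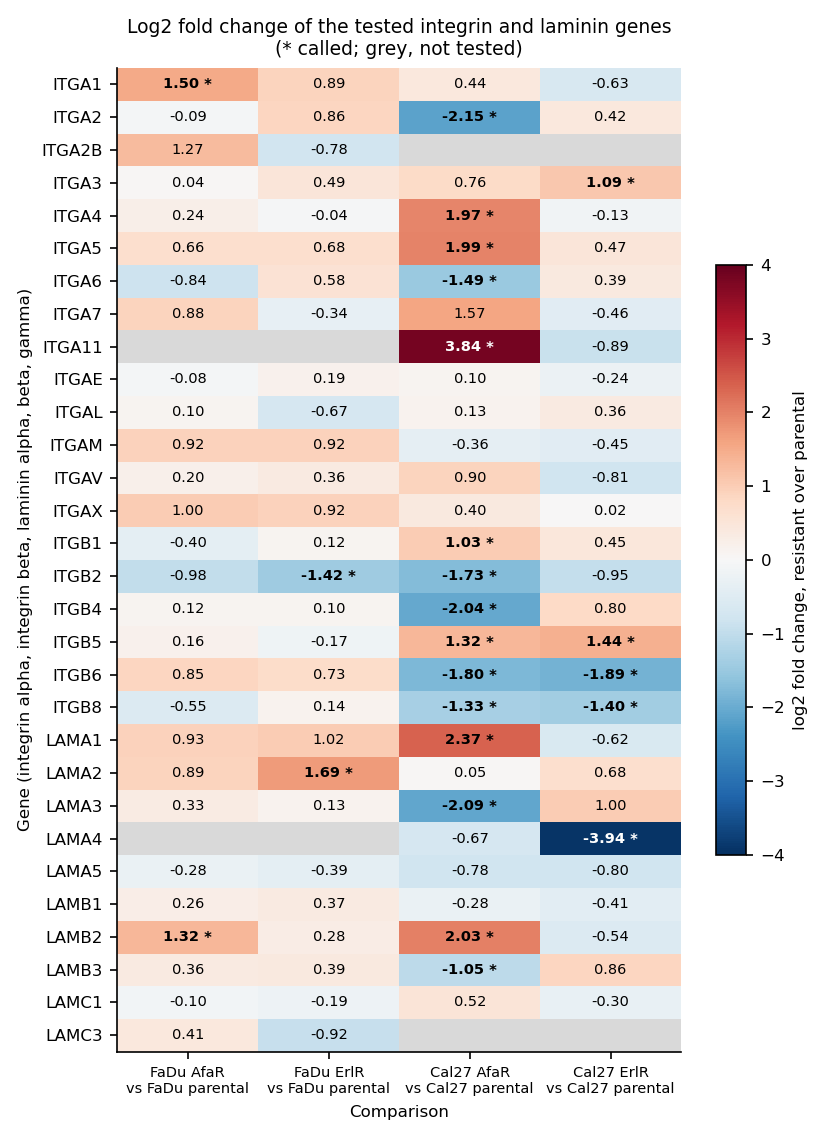
Log2 fold change of each integrin and laminin gene reported (rows) in the 4 comparisons of resistant with parental cells (columns), on a colour scale from blue (lower) to red (higher) cut at 4. Asterisks mark called genes and grey cells genes that were not tested. The Cal27 AfaR column runs from 3.84 for ITGA11 to -2.15 for ITGA2.

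Per kilobase of exon, used to set levels of different genes side by side, the parental cells of both lines were led by the same chains. The length used is that of the whole gene model, whichever transcripts were expressed, so levels between genes are approximate. ITGA3 and ITGA6 were the leading integrin alpha chains, at 68.0 ± 1.43 and 41.9 ± 1.15 CPM per kb in FaDu parental and at 59.6 ± 12.3 and 59.5 ± 3.53 CPM per kb in Cal27 parental, where they did not differ beyond their spread. ITGB4 and ITGB1 led the beta chains, LAMA5 and LAMA3 the laminin alpha chains and LAMB3 the beta chains. In Cal27 AfaR the order of the integrin chains was different, while ITGA3, LAMA5 and LAMB3 still led the integrin alpha, laminin alpha and laminin beta chains. ITGAV, at 41.8 ± 0.101 CPM per kb, and ITGA5, at 31.6 ± 5.15 CPM per kb, stood above ITGA6, at 21.1 ± 0.157 CPM per kb. ITGB1 made up 71.5% of the summed beta-chain CPM per kb in Cal27 AfaR, against 33.6% in Cal27 parental and 30.8% in Cal27 ErlR. ITGB4 made up 12.3%, 48.9% and 58.0% of it in the same groups. The ratio of ITGB1 to ITGB4 per kb was 0.706 in Cal27 parental, 5.97 in AfaR and 0.534 in ErlR.

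**Figure D2:**
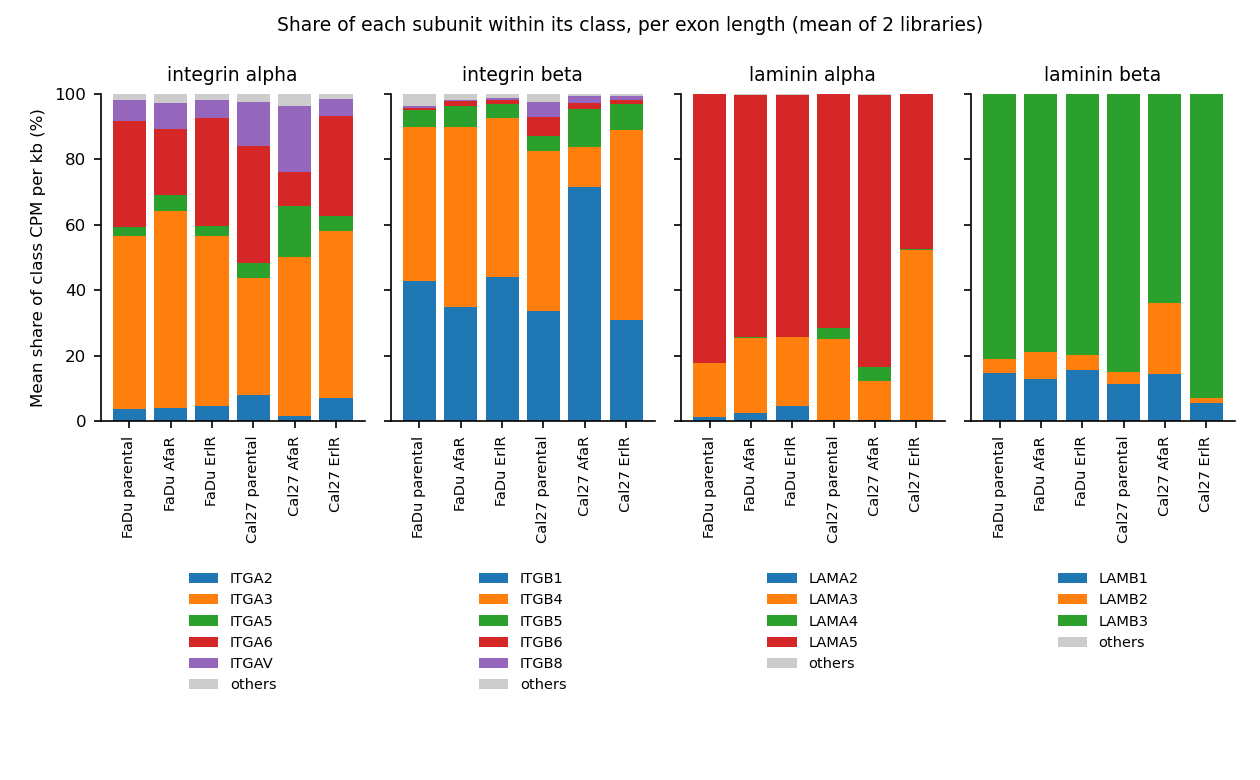
Share of each subunit in the summed CPM per kb of its class (vertical axis, percent, mean of 2 libraries) in the 6 groups, in 1 panel per class; subunits that never pass 4% are pooled in grey. In Cal27 AfaR, ITGB1 takes 71.5% of the integrin beta class.

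The laminin-332 chains LAMA3 and LAMB3 were lower in Cal27 AfaR and had higher means in Cal27 ErlR, where the libraries of the group lay far apart. LAMA3 (ENSG00000053747, chr18:23689443-23955066), its alpha chain, was at 119.7 and 87.3 CPM in the Cal27 parental libraries, 27.5 and 21.0 CPM in AfaR and 301 and 121 CPM in ErlR. The AfaR libraries were both below the parental ones, and the ErlR libraries above them, replicate 2 only just. The log2 fold change was -2.09 in AfaR (standard error 0.369, edgeR adjusted p = 0.00216) and 1.00 in ErlR (standard error 0.351, edgeR adjusted p = 0.0608), which did not pass. In ErlR, LAMA3 was called higher without the filter on low counts, with ERCC scaling and in the fit of 12 libraries. It was not called with DESeq2 or with RLE or upper-quartile scaling. LAMB3 (ENSG00000196878, chr1:209614870-209652466), the beta chain, was at 692 and 720.1 CPM in the parental libraries, 336 and 347 CPM in AfaR and 1659 and 945 CPM in ErlR. Again the groups did not overlap. Its log2 fold change of -1.05 in AfaR was called (standard error 0.227, edgeR adjusted p = 0.00605), and that of 0.86 in ErlR passed the adjusted p but not the limit on size (edgeR adjusted p = 0.021). LAMB3 lost its call in AfaR without Cal27 AfaR replicate 1.

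In FaDu neither LAMA3 nor LAMB3 was called. LAMA3 was at 34.1 and 44.4 CPM in FaDu parental, 56.5 and 43.7 CPM in AfaR and 31.5 and 55.2 CPM in ErlR. LAMB3 was at 324 and 260.2 CPM in the parental libraries, 377 and 384 CPM in AfaR and 237 and 538 CPM in ErlR. The ErlR libraries lay on both sides of the parental ones for both genes. Their log2 fold changes lay from 0.13 to 0.39 in the FaDu comparisons with parental cells.

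**Figure D3:**
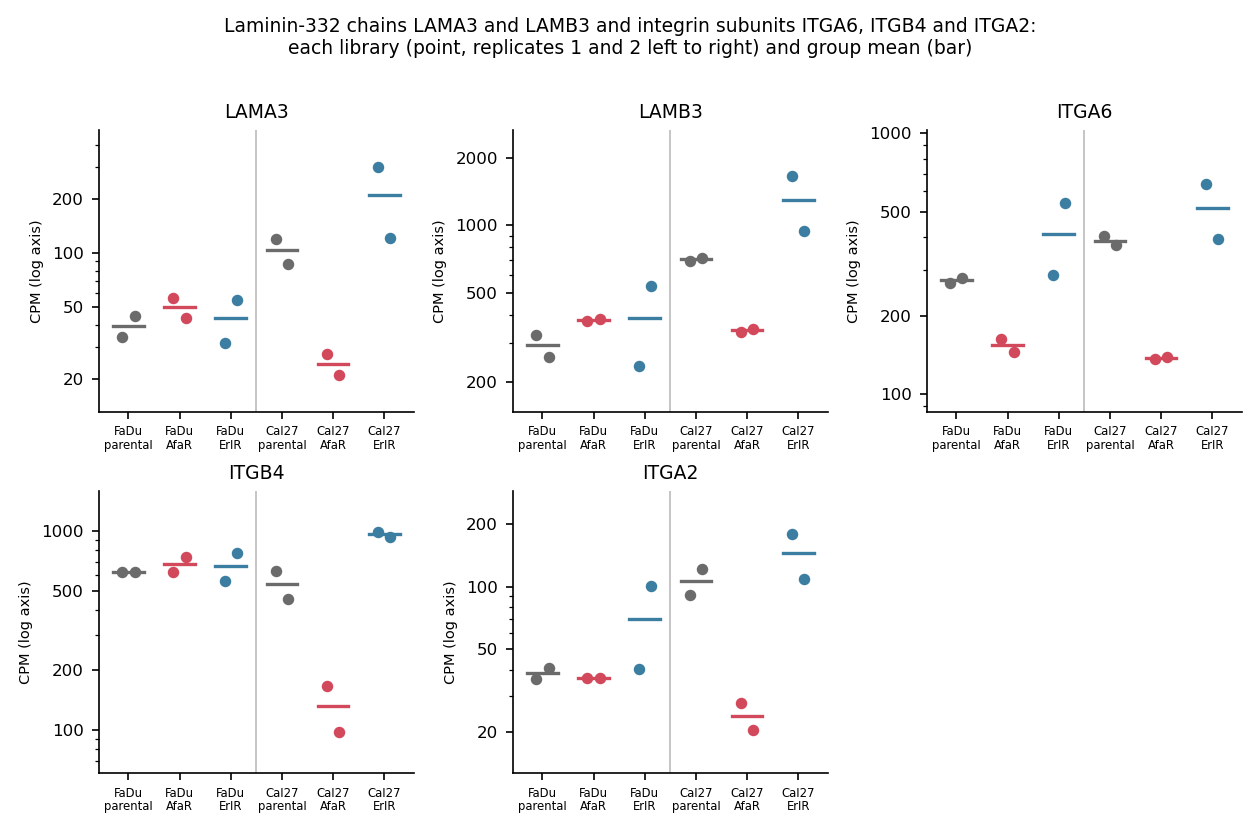
CPM on a log axis of the laminin-332 chains LAMA3 and LAMB3 and of the integrin chains ITGA6, ITGB4 and ITGA2 in the 12 libraries (points; replicates 1 and 2 from left to right) with group means (bars). All 5 genes are lower in both Cal27 AfaR libraries (red) than in either Cal27 parental library (grey), and LAMB3 spans 945 to 1659 CPM in Cal27 ErlR.

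The integrin chains of the hemidesmosome and the collagen-binding chain ITGA2 were also lower in Cal27 AfaR. ITGB4 (ENSG00000132470, chr17:75721328-75757818), the beta chain of the hemidesmosome receptor, was at 628 and 451 CPM in the parental libraries, 165 and 97.3 CPM in AfaR and 984 and 934 CPM in ErlR. It fell by 2.04 on the log2 scale in AfaR (standard error 0.25, edgeR adjusted p = 0.000297), with no overlap between groups. The ErlR libraries were above the parental ones, with a log2 fold change of 0.80 that passed the adjusted p (edgeR adjusted p = 0.0349) but not the limit on size. ITGA6 (ENSG00000091409, chr2:172427354-172506282), its alpha partner, was at 405 and 372 CPM in the parental libraries, 137 and 139 CPM in AfaR and 642 and 395 CPM in ErlR. The AfaR libraries stood below the parental ones, whereas the ErlR libraries overlapped them. It fell by 1.49 on the log2 scale in AfaR (standard error 0.207, edgeR adjusted p = 0.000586), and its log2 fold change in ErlR was 0.39. ITGA2 (ENSG00000164171, chr5:52989326-53094779), the alpha chain of an epithelial collagen receptor, was at 91.7 and 121 CPM in the parental libraries, 27.5 and 20.4 CPM in AfaR and 179.7 and 109.5 CPM in ErlR. It fell by 2.15 on the log2 scale in AfaR (standard error 0.258, edgeR adjusted p = 0.000264), with the ErlR libraries overlapping the parental ones. Leaving out any 1 of the 6 Cal27 libraries left all 3 calls in AfaR in place. ITGA3 (ENSG00000005884, chr17:50055968-50090481), the alpha chain of the other laminin-332 receptor, ran differently. It was at 669.6 and 499 CPM in the parental libraries, 1115 and 855 CPM in AfaR and 1401 and 1135 CPM in ErlR. Both resistant groups were above the parental one, with a called log2 fold change of 1.09 in ErlR (standard error 0.196, edgeR adjusted p = 0.00384) and of 0.76 in AfaR, which passed the adjusted p alone (edgeR adjusted p = 0.0138). The ITGA3 call in ErlR was lost without Cal27 ErlR replicate 1, at 0.94, or without Cal27 parental replicate 2, at 0.91.

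In FaDu, ITGB4 was level across the groups, at 617 and 617 CPM in parental, 621 and 739.7 CPM in AfaR and 560.5 and 774 CPM in ErlR. Its log2 fold changes of 0.12 and 0.10 were smaller than the spread of the resistant libraries. ITGA6 was at 268 and 279 CPM in FaDu parental, 164 and 146 CPM in AfaR and 286 and 541 CPM in ErlR. Its AfaR libraries were below the parental ones, and the log2 fold change of -0.84 passed the adjusted p (edgeR adjusted p = 0.0392) but not the limit on size.

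Receptors of fibronectin and other matrix proteins were higher in Cal27 AfaR. ITGA5 (ENSG00000161638, chr12:54395261-54419460), the alpha chain of the fibronectin receptor whose promoter is printed above, was at 58.2 and 62.2 CPM in the parental libraries, 212 and 267 CPM in AfaR and 96.0 and 73.9 CPM in ErlR. Both AfaR libraries were well above all others. Its log2 fold change in AfaR was 1.99 (standard error 0.17, edgeR adjusted p = 3.7e-05), and that of 0.47 in ErlR did not pass (edgeR adjusted p = 0.0628). ITGB1 (ENSG00000150093, chr10:32900319-33005792), the beta chain shared by most matrix receptors, was at 309.7 and 344 CPM in the parental libraries, 733 and 600.5 CPM in AfaR and 512 and 400.2 CPM in ErlR. The 3 groups did not overlap. Its log2 fold change of 1.03 in AfaR (standard error 0.167, edgeR adjusted p = 0.00138) sat just past the limit, and was 0.88 without Cal27 AfaR replicate 1 and 0.96 without Cal27 parental replicate 1. ITGA4 (ENSG00000115232, chr2:181457202-181536187), which binds VCAM1 and fibronectin, was at 6.58 and 5.78 CPM in the parental libraries, 23.2 and 25.1 CPM in AfaR and 6.13 and 5.38 CPM in ErlR. The AfaR libraries stood above all others, with a log2 fold change of 1.97 (standard error 0.194, edgeR adjusted p = 8.37e-05) beside -0.13 in ErlR. ITGA11 (ENSG00000137809, chr15:68296533-68432162), an alpha chain of collagen receptors known mainly from fibroblasts, had 4 and 4 counts in the parental libraries, 50 and 72 counts in AfaR and 0 and 4 counts in ErlR. Its log2 fold change in AfaR was 3.84 (standard error 0.67, edgeR adjusted p = 0.002), at a level of 2.70 and 4.18 CPM.

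Fibroblast markers moved with these members in Cal27 AfaR. The summed level of 8 fibroblast markers was 30.2 to 41.8 CPM in Cal27 parental, 314.8 to 326.5 CPM in AfaR and 5.37 to 10.6 CPM in ErlR. COL1A1 held most of the AfaR sum, at 265.7 and 273.1 CPM, and LUM was at 42.9 and 24.3 CPM. PDGFRB was also higher, at 1.81 and 1.46 CPM in parental and 12.7 and 11.8 CPM in AfaR. COL1A2 was at 1.57 and 2.80 CPM in parental and 4.16 and 4.06 CPM in AfaR. The markers DCN, at 0 and 0.116 CPM, and PDGFRA, at 0.054 and 0 CPM, were at or near 0 in AfaR. COL3A1 and THY1 stayed under 1 CPM there. In AfaR, 4 of the 8 markers reached 1 CPM, namely COL1A1, COL1A2, PDGFRB and LUM. In the parental cells it was also 4, with COL3A1 in place of LUM. The part of fibroblast markers and of the lower squamous markers in the Cal27 AfaR results was not tested.

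ITGA1 (ENSG00000213949, chr5:52787896-52959210), an alpha chain of collagen receptors, was among the called genes of FaDu AfaR. It was at 0.825 and 0.936 CPM in FaDu parental, 1.84 and 3.21 CPM in AfaR and 1.28 and 2.03 CPM in ErlR. The AfaR libraries were above the parental ones, with a log2 fold change of 1.50 (standard error 0.428, edgeR adjusted p = 0.041). The call was lost with DESeq2, with glmTreat, in the fit of 12 libraries and without FaDu parental replicate 1, FaDu parental replicate 2 or FaDu AfaR replicate 2. In Cal27 parental, ITGA1 differed between libraries, at 3.90 and 18.3 CPM. The ITGA1 gene overlaps PELO on the same strand, a gene with 7240 counts over the 12 libraries against 1354 for ITGA1, so its counts are uncertain.

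The beta chains that pair with ITGAV went apart in Cal27, where ITGB6 and ITGB8 fell and ITGB5 rose in both resistant models. ITGB6 (ENSG00000115221, chr2:160099666-160271888), an epithelial beta chain that activates latent TGF-beta, was at 51.6 and 71.8 CPM in the parental libraries, 18.8 and 16.6 CPM in AfaR and 15.6 and 18.3 CPM in ErlR. Its log2 fold changes were -1.80 in AfaR (standard error 0.193, edgeR adjusted p = 0.000133) and -1.89 in ErlR (standard error 0.194, edgeR adjusted p = 0.000285). ITGB8 (ENSG00000105855, chr7:20330702-20415754), the other chain that binds latent TGF-beta, was at 82.0 and 141 CPM, 48.9 and 39.5 CPM, and 40.4 and 45.5 CPM in the same order of groups. Both resistant groups were below both parental libraries for ITGB6 and ITGB8. The log2 fold changes of ITGB8 were -1.33 in AfaR (standard error 0.237, edgeR adjusted p = 0.00219) and -1.40 in ErlR (standard error 0.238, edgeR adjusted p = 0.00292), and without Cal27 parental replicate 2 they were -0.89 and -0.94 and were not called. ITGB5 (ENSG00000082781, chr3:124761948-124901418), a vitronectin receptor chain, was at 50.0 and 43.5 CPM in the parental libraries, 119 and 113 CPM in AfaR and 146 and 111 CPM in ErlR. It was higher in all 4 resistant libraries, by 1.32 in AfaR (standard error 0.158, edgeR adjusted p = 0.000266) and 1.44 in ErlR (standard error 0.159, edgeR adjusted p = 0.000414) on the log2 scale. The AfaR and ErlR comparisons share their parental libraries, so these paired values are not independent. ITGAV (ENSG00000138448, chr2:186590065-186680901) itself was at 172 and 196 CPM in the parental libraries, 344 and 342 CPM in AfaR and 118 and 96.1 CPM in ErlR. The groups did not overlap, and log2 fold changes of 0.90 in AfaR (edgeR adjusted p = 0.00121) and -0.81 in ErlR (edgeR adjusted p = 0.00367) passed the adjusted p but not the limit on size.

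In FaDu none of these chains was called in a comparison with parental cells. ITGB6 was at 8.06 and 10.2 CPM in FaDu parental, 15.6 and 17.7 CPM in AfaR and 10.4 and 20.2 CPM in ErlR, so that no resistant library was below the parental ones. Its log2 fold change of 0.85 in AfaR did not pass (edgeR adjusted p = 0.0662). The per-kb ratio of ITGB6 to ITGB5 was 1.36 ± 0.443 in Cal27 parental and between 0.138 and 0.258 in the other 5 groups.

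**Figure D4:**
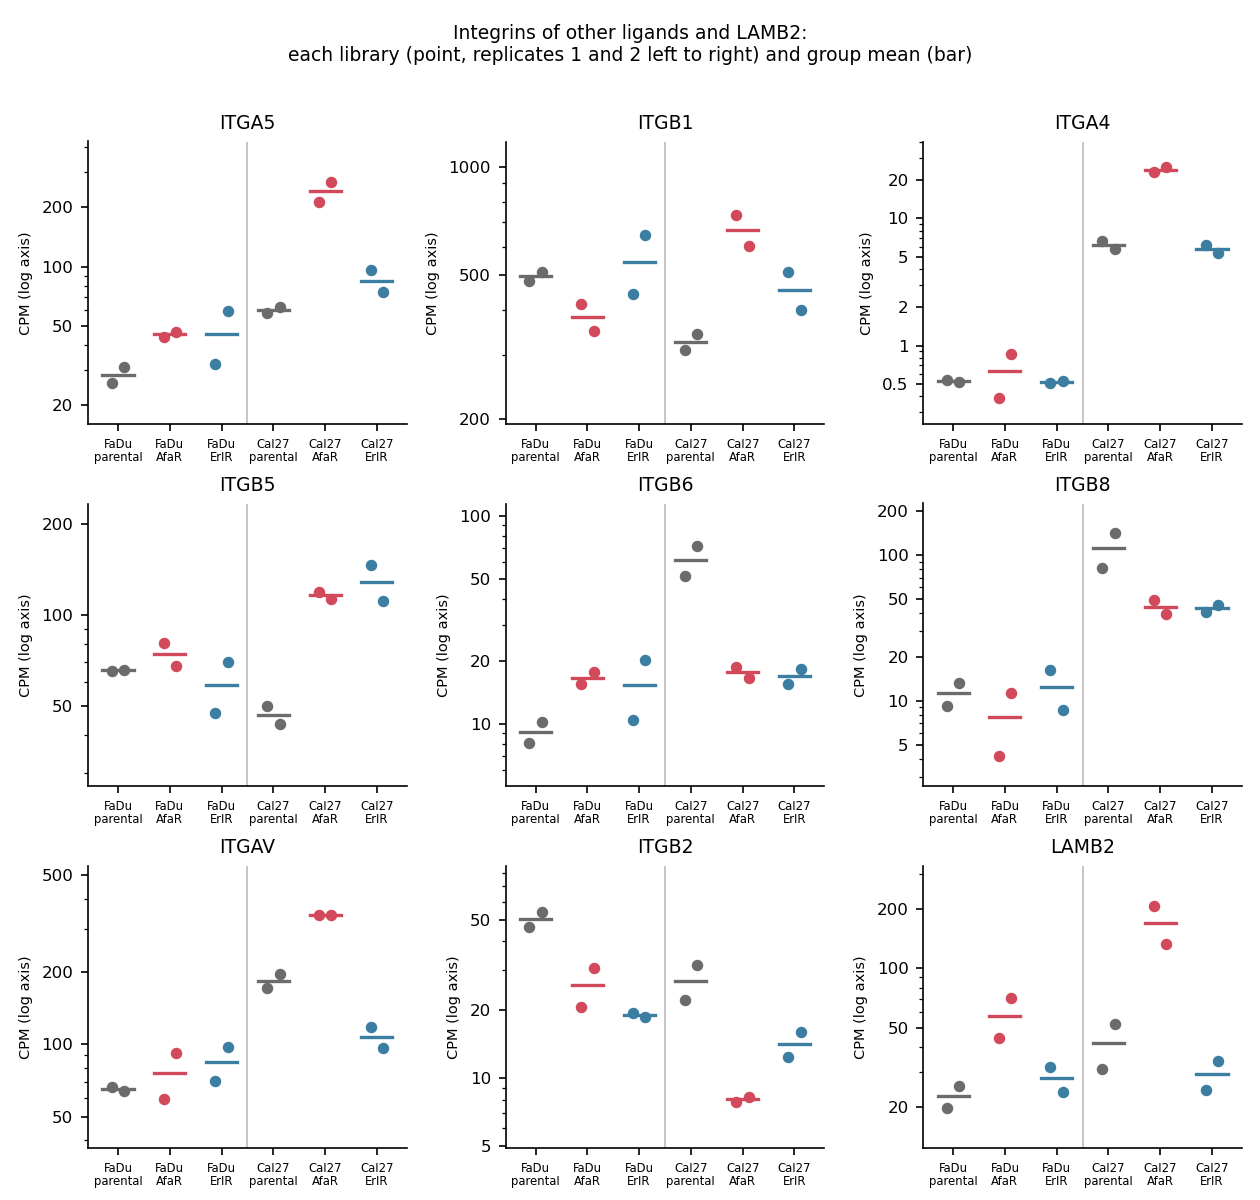
CPM on a log axis of 8 integrin chains of other ligands and of LAMB2 in the 12 libraries (points; replicates 1 and 2 from left to right) with group means (bars). In Cal27, ITGA5, ITGA4 and LAMB2 are highest in the AfaR libraries (red), ITGB5 is higher and ITGB6 and ITGB8 are lower in both resistant groups, and ITGB2 is lowest in AfaR at 7.83 and 8.24 CPM.

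ITGB2 (ENSG00000160255, chr21:44885953-44931989), the leukocyte beta chain, was measured at lower levels in every resistant group than in the parental cells. It was at 46.2 and 54.2 CPM in FaDu parental, 20.6 and 30.7 CPM in AfaR and 19.4 and 18.5 CPM in ErlR. In Cal27 it was at 22.0 and 31.4 CPM in parental, 7.83 and 8.24 CPM in AfaR and 12.3 and 15.9 CPM in ErlR. Every resistant library was below both parental libraries of its line. The log2 fold changes were -1.42 in FaDu ErlR (standard error 0.191, edgeR adjusted p = 0.00992) and -1.73 in Cal27 AfaR (standard error 0.227, edgeR adjusted p = 0.000435), which were called. Those of -0.98 in FaDu AfaR (edgeR adjusted p = 0.0109) and -0.95 in Cal27 ErlR (edgeR adjusted p = 0.0123) passed the adjusted p but not the limit on size. The FaDu ErlR call was lost without FaDu parental replicate 2 or FaDu ErlR replicate 2, and with ERCC scaling, at -0.93. The summed level of 8 leukocyte markers was 12.2 to 22.9 CPM over all libraries, and 4 or 5 of the 8 reached 1 CPM in each group. CD14 was at 6.20 to 12.6 CPM and PTPRC at 1.73 to 3.69 CPM over all libraries, while CD3E was at 0 in both libraries of every group but Cal27 parental, where it was at 0 and 0.233 CPM. The summed level was 15.6 to 17.0 CPM in FaDu parental and 12.2 to 17.1 CPM in FaDu ErlR, and in Cal27 it was 15.0 to 18.1 CPM in parental and 14.9 to 16.0 CPM in AfaR. The part of leukocyte markers in the ITGB2 results was not tested. The alpha partners ITGAL, ITGAM and ITGAX were tested in both lines and called in no comparison with parental cells, at levels from 0.583 to 5.30 CPM.

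Of the other laminin chains, LAMB2 (ENSG00000172037, chr3:49121114-49133118), a beta chain of laminins of vessels, muscle and kidney, was higher in the AfaR cells of both lines. It was at 19.8 and 25.5 CPM in FaDu parental, 44.2 and 70.5 CPM in AfaR and 31.7 and 23.8 CPM in ErlR. In Cal27 it was at 31.1 and 52.5 CPM in parental, 207 and 133 CPM in AfaR and 24.3 and 34.1 CPM in ErlR. The AfaR libraries stood above all others of their line. The log2 fold changes in AfaR were 1.32 in FaDu (standard error 0.235, edgeR adjusted p = 0.00925) and 2.03 in Cal27 (standard error 0.289, edgeR adjusted p = 0.000683). The FaDu call was lost without FaDu parental replicate 1, at 1.14, or without FaDu AfaR replicate 2, at 0.95. The summed level of the endothelial markers was 3.50 to 6.03 CPM in FaDu parental and 6.70 to 20.7 CPM in FaDu AfaR, that of the fibroblast markers 4.66 to 5.51 and 7.08 to 7.81 CPM, and their part in the FaDu AfaR results was not tested. With LAMA5 and LAMC1, LAMB2 forms laminin-521, and LAMB1 takes its place in laminin-511. The per-kb ratio of LAMB2 to LAMB1 was 0.311 ± 0.143 in Cal27 parental, 1.48 ± 0.26 in AfaR and 0.282 ± 0.0908 in ErlR.

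LAMA4 (ENSG00000112769, chr6:112108760-112254939), the alpha chain of endothelial and mesenchymal laminins, was at 9.79 and 13.9 CPM in Cal27 parental, 7.83 and 7.02 CPM in AfaR and 0.703 and 0.856 CPM in ErlR. The ErlR libraries were far below all others of the line. The log2 fold change was -3.94 in ErlR (standard error 0.324, edgeR adjusted p = 9.89e-05) and -0.67 in AfaR (edgeR adjusted p = 0.0646), which did not pass. The summed level of 6 endothelial markers moved alongside, at 32.0 to 33.2 CPM in Cal27 parental, 30.4 to 37.6 CPM in AfaR and 2.68 to 6.48 CPM in ErlR. CDH5 was at 30.3 and 30.7 CPM in parental, nearly all of the sum there, and at 1.09 and 4.16 CPM in ErlR. PECAM1 was at 1.22 and 1.40 CPM in parental and 1.41 and 1.65 CPM in ErlR, while VWF and TEK were under 1 CPM in every Cal27 library. Its part in the LAMA4 result was not tested. LAMA1 (ENSG00000101680, chr18:6941744-7117814), an early embryonic chain, had 1 and 4 counts in Cal27 parental and 14 and 14 counts in AfaR. Its call there, with a log2 fold change of 2.37 (standard error 0.742, edgeR adjusted p = 0.0316), was lost with DESeq2 and without any 1 of the 6 libraries. LAMA2 (ENSG00000196569, chr6:128883141-129516569), the muscle laminin chain, was at 1.65 and 2.75 CPM in FaDu parental, 3.59 and 4.65 CPM in AfaR and 6.52 and 7.85 CPM in ErlR. The 3 groups did not overlap. Its log2 fold change in ErlR was 1.69 (standard error 0.324, edgeR adjusted p = 0.0269), a call lost without either parental library or without FaDu ErlR replicate 2.

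The widely expressed chains LAMA5, LAMB1 and LAMC1 were called in no resistant group. LAMA5 was at 333 and 296 CPM in Cal27 parental, 199 and 166 CPM in AfaR and 164 and 204 CPM in ErlR. Both resistant groups were below the parental one, with log2 fold changes of -0.78 (edgeR adjusted p = 0.00397) and -0.80 (edgeR adjusted p = 0.00561). LAMC1 was at 289.8 and 259 CPM in Cal27 parental and 396 and 391 CPM in AfaR, a log2 fold change of 0.52 (edgeR adjusted p = 0.0105). LAMB1 lay between 88.5 and 175 CPM over all 12 libraries. LAMA5 overlaps ADRM1 and LAMB1 overlaps DLD on the opposite strand, and whether the counting used strand is not given in the sources used here.

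The 2 resistant models of a line were also compared with each other. In Cal27, 14 of 29 members were called between AfaR and ErlR, 8 higher and 6 lower in AfaR, against 27.1% of all genes (18.2% higher and 8.86% lower). Those lower in AfaR included ITGB4 (log2 difference -2.84), LAMA3 (-3.09), ITGA2 (-2.56), LAMB3 (-1.90) and ITGA6 (-1.88), that is, laminin-332 chains with their hemidesmosome receptor and ITGA2. Each of these 5 was called with any 1 of the 6 libraries left out (weakest LAMB3 difference -1.45). The 8 higher in AfaR were ITGA11 (4.73), LAMA4 (3.27), LAMA1 (2.99), LAMB2 (2.57), ITGA4 (2.10), ITGA7 (2.03), ITGAV (1.71) and ITGA5 (1.52). The calls of LAMA1 and ITGA7, both low, were lost without either AfaR library or Cal27 ErlR replicate 1, and that of LAMA1 also without Cal27 ErlR replicate 2. ITGA7 also overlaps BLOC1S1 on the opposite strand, a gene with 3874 counts over the 12 libraries against 156 for ITGA7, so its counts are uncertain. In FaDu, 4 of 29 were called, against 5.94% of all genes (4.45% higher and 1.50% lower in AfaR). ITGA6 was lower in AfaR than in ErlR, by -1.42 (standard error 0.24, edgeR adjusted p = 0.00698), which was -0.90 and not called without FaDu ErlR replicate 2. LAMB2 (1.04), LAMC3 (1.33) and ITGA2B (2.05) were higher in AfaR. LAMC3 and ITGA2B stood at 2.43 CPM or less in every library, and all 4 calls were lost without FaDu AfaR replicate 2 or without FaDu ErlR replicate 2.

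The parental lines differed from each other before any selection. Of 31 members tested in the fit of all 12 libraries, 12 were called, 10 higher and 2 lower in Cal27, against 31.6% of all 16240 genes (19.1% higher and 12.5% lower). LAMA4 (log2 difference 5.67), ITGA1 (3.65), ITGA4 (3.53), ITGB8 (3.31) and ITGB6 (2.76) were the members with the widest gaps, followed by ITGAV (1.50), ITGA2 (1.47), LAMA3 (1.40), LAMB3 (1.27) and ITGA5 (1.09). LAMC3 (-2.44) and LAMA2 (-1.58) were lower in Cal27. The calls of ITGA5 and LAMA3 were lost without FaDu parental replicate 1, and that of LAMA2 without FaDu parental replicate 2. Several chains that changed in the Cal27 models, ITGB6, ITGB8, ITGA4 and LAMA4, were measured at only 0.208 to 13.2 CPM in FaDu parental. With spike-in (ERCC) scaling the median of all genes was 0.62 in this comparison, beside 0.04 with TMM. There, 16 members were higher and 1 lower in Cal27, against 38.8% of all genes (32.9% higher and 5.89% lower).

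The change from parental to AfaR differed between the lines for 11 of the 31 members, 6 with a more positive and 5 with a more negative change in FaDu, against 12.3% of all genes (7.57% and 4.76%). On one side were the hemidesmosome chain ITGB4 and the laminin-332 chains LAMA3 and LAMB3, with ITGA2, ITGA2B and ITGB6. On the other were ITGA5, ITGB1, ITGA4, ITGA11 and ITGB5. ITGA6, the partner of ITGB4, was not among them. For ITGB4 the log2 fold change was 0.12 in FaDu and -2.04 in Cal27, and for ITGB1 it was -0.40 in FaDu and 1.03 in Cal27. The ErlR change differed for 4 members, against 10.9% of all genes (7.51% more positive and 3.36% more negative in FaDu). With ITGB6 it was 0.73 in FaDu and -1.89 in Cal27, and with ITGB5 it was -0.17 in FaDu and 1.44 in Cal27. ITGAV and LAMA4 were the others. With ERCC scaling, 7 members differed in ErlR, 6 more positive in FaDu and 1 more negative, beside a median of 0.49 over all genes and 17.3% of all genes called (16.2% more positive and 1.07% more negative).

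**Figure D5:**
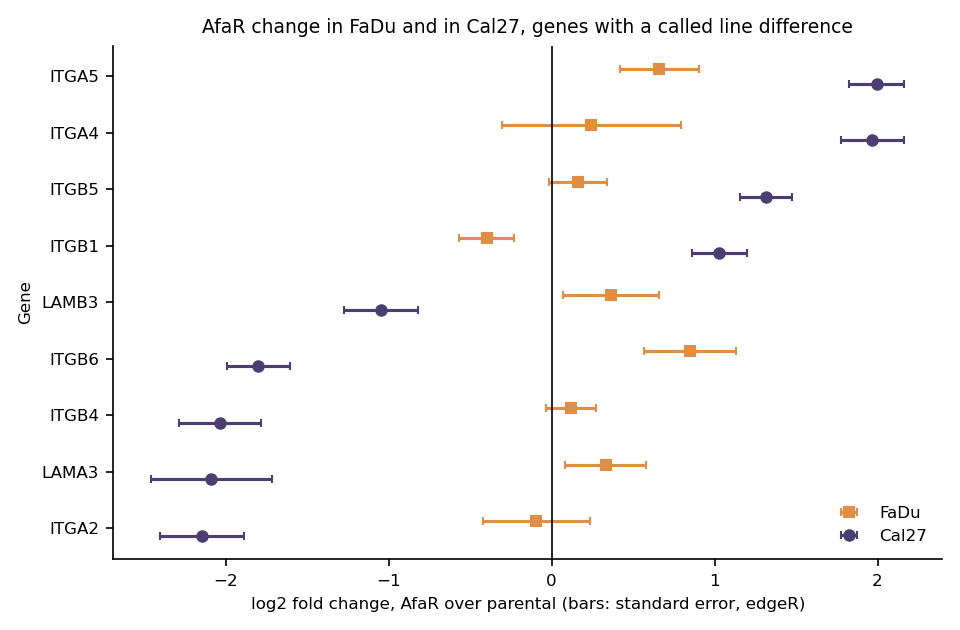
Log2 fold change of AfaR over parental (horizontal axis; bars are edgeR standard errors) in FaDu (orange squares) and Cal27 (purple circles) for the 9 members tested in both lines whose AfaR change differed between them. The values in Cal27 run from -2.15 for ITGA2 to 1.99 for ITGA5, while those in FaDu lie between -0.40 and 0.85.

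Scaling mattered for the FaDu models. With ERCC scaling the median log2 fold change of all genes was 0.18 for FaDu AfaR and 0.49 for FaDu ErlR. The TMM values given above are changes relative to a median near 0. With ERCC scaling, 5 members were called higher and 0 lower in FaDu AfaR, where TMM gave 2 and 0, and 9.70% of all genes were called (9.04% higher and 0.663% lower). In FaDu ErlR, 9 were then called higher and 0 lower, where TMM gave 1 and 1, and 10.4% of all genes were called (10% higher and 0.411% lower). Between FaDu AfaR and ErlR the ERCC values gave 1 higher and 4 lower, where TMM gave 3 and 1, beside a median of -0.29 over all genes and 7.82% of all genes called (2.90% higher and 4.92% lower). In both Cal27 comparisons with parental cells the median moved by less than 0.1.

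Genes that work beside the members were followed in 4 lists, whose shares of called genes stand against 7.43% of all genes in FaDu AfaR (6.48% higher and 0.954% lower) and 2.05% for the ErlR model of that line, and against 19.6% and 13.5% for the AfaR and ErlR models of Cal27. Of 11 hemidesmosome and laminin adhesion partners, 1 rose and 3 fell in Cal27 AfaR, 36.4% of the list. KRT14 (-7.24), COL17A1 (-3.70) and KRT5 (-2.73) fell on the log2 scale, keratins and a transmembrane collagen of the basal cell layer, and PLEC, which links hemidesmosomes to keratin, rose by 1.10. KRT5 and KRT14 also belong to the squamous markers given above. In Cal27 ErlR, PLEC rose by 1.10 and KRT14 fell by 3.19 on the log2 scale, 18.2% of the list, and in both FaDu models 0 of the 11 were called by edgeR. At an unadjusted p-value under 0.05, FaDu AfaR held 4 of the 11 and FaDu ErlR 7, and DESeq2 called 0 and 1 of them. The median log2 fold change of the list was -0.19 in Cal27 AfaR and 0.14 in Cal27 ErlR.

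Of the basement membrane partners of laminins, 7 of 13 tested rose and 1 fell in FaDu AfaR, 61.5% of those tested, with a median log2 fold change of 1.09 over the list. COL4A4 (2.25), NTN4 (1.90) and COL4A6 (1.59) led the rises, chains of the type IV collagen network and a laminin-related netrin. COL4A4 was low, with 2 and 4 counts in FaDu parental and 14 and 20 counts in AfaR. NTN4 was at 3.59 and 4.63 CPM in FaDu parental and at 7.42 and 23.7 CPM in AfaR, where the libraries lay far apart. SPARC, a collagen-binding matrix protein, fell by 1.32 on the log2 scale. Fits that leave out 1 library are not given for the partner genes. In FaDu ErlR, COL4A6 (1.93) and SPARC (1.57) rose and 0 of 13 fell, 15.4% of those tested, with a median of 0.30. In Cal27 AfaR, 4 of 11 rose and 0 fell, led by SPARC (2.78), NTN4 (1.61) and FRAS1 (1.53), and in Cal27 ErlR 0 rose and 4 fell, led by HSPG2 (-2.18), the perlecan gene, NTN4 (-2.01) and SPARC (-1.19). The called share was 36.4% in each Cal27 model, and the medians were 0.28 and -0.63.

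Of 28 integrin adaptor and focal adhesion genes, 26 were tested in FaDu and 27 in Cal27. TGFB1I1, a paxillin relative, rose in 3 models, by 2.14 in FaDu AfaR, 3.99 in Cal27 AfaR and 1.47 in Cal27 ErlR on the log2 scale. In FaDu AfaR, 3 rose, also TNS2 (1.18) and TNS1 (1.09), and 0 fell, and in FaDu ErlR 0 of 26 were called by edgeR, where 10 had an unadjusted p-value under 0.05 and DESeq2 called 1. In Cal27 AfaR, 6 rose and 4 fell. Among those that rose were LIMS2 (4.21) and TLN2 (3.79), a talin that links integrins to actin. LIMS2 had only 1 and 5 counts in Cal27 parental, and 46 and 73 counts in AfaR. Among those that fell were FERMT1 (-2.81), the kindlin of epithelial cells, PTK2B (-1.30) and TNS4 (-1.29). In Cal27 ErlR, 2 rose and 3 fell, with FLNA (1.40), TNS1 (-1.98), TNS3 (-1.92) and PTK2B (-1.14) beside TGFB1I1. TNS1 was low, with 19 and 19 counts in Cal27 parental and 4 and 5 counts in ErlR. The called shares of the list were 11.5% in FaDu AfaR, 37.0% in Cal27 AfaR and 18.5% in Cal27 ErlR, of which the FaDu AfaR and Cal27 ErlR shares lay near those of all genes. The medians of the list lay from 0.02 to 0.33 in the 4 comparisons.

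Of 21 other integrin ligands, 14 were tested in each line. In Cal27 AfaR, 7 rose and 1 fell, with a median log2 fold change of 1.09. FBN1 (5.59), EDIL3 (5.10) and IBSP (3.79), matrix proteins with the integrin-binding RGD motif, led the rises. IBSP was low, with 2 and 1 counts in Cal27 parental and 34 and 13 counts in AfaR. CDH1, E-cadherin, the ligand of the ITGAE receptor, fell by 2.42 on the log2 scale. In Cal27 ErlR, 1 rose, SPP1 (1.47), and 4 fell, led by NPNT (-3.01), ICAM1 (-2.04) and EDIL3 (-1.83), with a median of -0.64. In FaDu AfaR, 4 rose and 0 fell, led by SPP1 (2.00), NPNT (1.51) and EDIL3 (1.35), and in FaDu ErlR 1 rose, NPNT (2.07). The medians were 0.71 and 0.36. The called shares were 57.1% in Cal27 AfaR, 35.7% in Cal27 ErlR, 28.6% in FaDu AfaR and, from 1 gene of 14, 7.14% in FaDu ErlR.

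The remaining members were at low level or not changed past the limits. ITGA7, ITGAE, ITGAL, ITGAM and ITGAX were tested in both lines and called in no comparison with parental cells. ITGAE, the receptor chain for E-cadherin on lymphocytes, lay between 9.03 and 17.3 CPM over all libraries, and its gene overlaps HASPIN on the opposite strand. The other 4 stayed at 5.30 CPM or less. ITGA2B and LAMC3 were tested in FaDu but not in Cal27, and were called in neither comparison with parental cells there. ITGA11 and LAMA4 were tested in Cal27 but not in FaDu. Below the filter on low counts in both lines were ITGA8, ITGA9, ITGA10, ITGAD, ITGB3, ITGB7 and LAMB4, the highest of which reached 0.871 CPM in a library, that of ITGB3 in Cal27 AfaR. ITGA8 had 0 counts in all 12 libraries, which allows up to 0.128 to 0.184 CPM per library for counting error alone. The summed level of 6 platelet and megakaryocyte markers was at most 1.28 CPM in any library.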

How the data were processed

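Poly(A)-selected RNA of 12 libraries, with ERCC spike-in, was sequenced as paired-end reads in 1 labelled batch. Per the submitters' processing notes, the authors used Trimmomatic 0.36, STAR 2.5.2b on GRCh38 and featureCounts of Subread 1.5.2, and deposited raw counts per gene and library, without normalization. Whether the counting used strand is not given in the sources used here. The authors also deposited tables of normalized counts, which were not used here. Symbols were found for 56948 of the 58051 gene identifiers. The 92 spike-ins, 3.86% to 5.82% of reads, stayed out of the library sizes. FaDu parental and FaDu AfaR libraries held 20156109 to 23399259 gene counts and 5.64% to 5.82% spike-ins. Libraries of the other groups, FaDu ErlR included, held 16334937 to 16689855 gene counts and 3.86% to 4.60% spike-ins. Comparisons of FaDu ErlR with FaDu parental or AfaR, and of the parental lines, cross this split, as does the ErlR difference between the lines. Its part in the results was not tested.

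Differential expression used the quasi-likelihood test of edgeR 4.0.16 under R 4.3.3 (TMM, filterByExpr, glmQLFit, glmQLFTest, Benjamini-Hochberg adjustment over all genes tested), in 1 fit per line over 6 libraries with 3 residual degrees of freedom. The lines were compared in 1 fit over all 12 libraries, with 6. CPM per kb divides CPM by the deposited exon length. The script was tested on simulated data. Replicates differed by more than counting noise in every group, so none was merged.

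Members, partner lists, marker lists and tests were chosen with earlier results of these data known. Every member is accounted for; of each partner list, called genes are named, at most the 3 largest changes in each direction. Alternatives were DESeq2 1.42.0, glmTreat at a fold change of 1.2, adjusted p alone, 4 or 12 libraries in the fit, the replicate number as a block, the absence of a filter, a minimum of 10 counts in each library, RLE, upper-quartile and ERCC scaling, and leaving out each library in turn. A crossed replicate block was added after the data were seen. The planned description of integrin protein tails was not made, and some items are not reported here.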

Additional observations from a re-analysis of the deposited data

Results flagged for a closer look

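The change from parental to resistant cells differed between the lines in 15 tests of the difference itself. These were edgeR interaction terms over all 12 libraries, FaDu minus Cal27, called at an adjusted p below 0.05 with a log2 difference beyond 1 either way. For AfaR they were 11 of the 31 members tested, or 35.5%, against 12.3% of all genes. For ErlR they were 4 of 31, or 12.9%, near the 10.9% of all genes. For AfaR, the hemidesmosome beta chain ITGB4 and the laminin-332 chains LAMA3 and LAMB3 had the more positive change in FaDu. The log2 differences were 2.18 for ITGB4 (standard error 0.326, edgeR adjusted p = 0.000687), 2.44 for LAMA3 and 1.43 for LAMB3. ITGA6, the alpha partner of ITGB4, was not called for this difference and had a lower mean in AfaR in both lines. LAMB3 kept its call in 4 of the 12 fits that left out 1 library. ITGA2 differed by 2.08 and ITGB6 by 2.67 in the same direction, and both were called in all 12 such fits. ITGA2B differed by 2.98 (edgeR adjusted p = 0.0485) from at most 40 counts in any library, and was called in 0 of the 12.

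The AfaR change was more negative in FaDu for chains of fibronectin, collagen and vitronectin receptors, which was not a fall in FaDu for each of them. ITGA5 was at 3.39 and 4.09 CPM per kb in FaDu parental and higher, at 5.82 and 6.16 CPM per kb, in AfaR, without a call. ITGB1 was lower there, at 80.32 and 85.12 CPM per kb in FaDu parental and 69.01 and 58.15 CPM per kb in AfaR. The log2 difference was -4.36 for ITGA11, which had at most 13 counts in a FaDu library, -1.69 for ITGA4, -1.41 for ITGB1, -1.31 for ITGA5 and -1.13 for ITGB5. ITGB1 was called in all 12 fits that left out 1 library, ITGA11 and ITGB5 in 11, ITGA5 in 10 and ITGA4 in 6.

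For ErlR, the log2 difference was 2.61 for ITGB6, 4.42 for LAMA4, 1.15 for ITGAV and -1.62 for ITGB5. ITGB5 and ITGB6 were called in all 12 fits that left out 1 library, while LAMA4 lost its call without FaDu ErlR replicate 1 and ITGAV without FaDu ErlR replicate 2. LAMA4 had at most 9 counts in any FaDu library. Groups of 2 libraries are too small for a search for single libraries that stand apart.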

How the results depend on the processing

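No member called in a comparison changed direction under any alternative. With 2 libraries per group, small differences and members under about 1 CPM could not be resolved. Leaving out 1 library gave 0 to 2 called members in FaDu AfaR (2 with all libraries), 0 to 6 in FaDu ErlR (2), 12 to 16 in Cal27 AfaR (16), 3 to 10 in Cal27 ErlR (6), 0 to 4 between FaDu AfaR and ErlR (4), 12 to 16 between Cal27 AfaR and ErlR (14), 11 to 13 between the parental lines (12), 7 to 11 for the AfaR difference between the lines (11) and 3 to 6 for the ErlR difference (4). In FaDu AfaR, the calls of ITGA1 and LAMB2 were both lost without FaDu parental replicate 1 or without AfaR replicate 2. Without AfaR replicate 2, ITGB2 was called instead, lower. Without FaDu parental replicate 2, LAMB2 kept its call and ITGA1 lost it. In FaDu ErlR, 0 were called without FaDu parental replicate 2 or ErlR replicate 2, 1 without FaDu parental replicate 1 and 6 without ErlR replicate 1. Between FaDu AfaR and ErlR, 2 were called without either parental library and 0 without replicate 2 of either model. In Cal27 ErlR, the 3 came without Cal27 parental replicate 2 and the 10 without Cal27 parental replicate 1. The 7 for the AfaR difference came without either FaDu parental library or without Cal27 AfaR replicate 2. Where a group was left with 1 library, that library was assumed to vary like the others. The number of all genes called also moved in these fits. It fell without either FaDu parental library in both FaDu comparisons with parental cells. The ranges above therefore do not describe the members alone.

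With adjusted p alone, 4 of 29 members passed in FaDu AfaR, 11 of 29 in Cal27 ErlR and 19 of 31 between the parental lines. The shares of all genes that passed were 17.85%, 27.6% and 55.55% in the same order. DESeq2 called 1 in FaDu AfaR and 2 between FaDu AfaR and ErlR, against 6.59% and 5.31% of all genes. Between FaDu AfaR and ErlR, glmTreat called 2, against 7.39%. The fit of 12 libraries called 1 in FaDu AfaR, against 7.04%. In FaDu AfaR, glmTreat called ITGB2, lower, in place of ITGA1. ERCC scaling called 5 in FaDu AfaR, 9 in FaDu ErlR and 7 for the ErlR difference, with the medians and shares of all genes given above. LAMA1 lost its call in Cal27 AfaR with DESeq2, which called 14 members there, against 18.1% of all genes. The other counts stayed within 1.5 times those reported.

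Same-numbered libraries did not deviate together, with correlations of deviations from the group means between -0.249 and 0.161 over 6 pairs of groups, so the numbers were not taken as pairs. The replicate block gave 2 called members between FaDu AfaR and ErlR, without ITGA2B and LAMC3, against 5.03% of all genes. It gave 15 in Cal27 AfaR, without LAMA1, against 18.9%. For the AfaR difference it gave 10, without ITGA2B, against 12.1%, and it ended no other call. With FaDu ErlR and Cal27 AfaR crossed, a pairing added later, the block gave 3 in FaDu AfaR and 16 in Cal27 AfaR. The shares of all genes were 8.17% and 19.9%.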

Other observations

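Some members lie side by side on a chromosome. ITGA1 and ITGA2 lie 30.12 kb apart on chromosome 5, with log2 fold changes of 0.44 and -2.15 in Cal27 AfaR and of 1.50 and -0.09 in FaDu AfaR. ITGAM and ITGAX, alpha partners of ITGB2, lie 22.24 kb apart on chromosome 16 and had like values in FaDu, 0.92 and 1.00 in AfaR and 0.92 and 0.92 in ErlR, none of them called.

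Per kb of exon, LAMB3 was from 19.0 to 40.9 times LAMA3 in the 6 groups. The exon lengths used were 4749 bases for LAMB3 and 13522 for LAMA3, and the ratio would be lower if shorter LAMA3 transcripts were expressed. The highest LAMB3 to LAMA3 ratio was that of Cal27 AfaR, at 40.9 ± 8.71, beside 20.0 ± 4.98 in Cal27 parental and 19.0 ± 4.63 in Cal27 ErlR. The ratio of ITGB4 to its partner ITGA6 was 2.18 ± 0.0594 in FaDu parental and 4.28 ± 0.869 in FaDu AfaR. The mean level there was 154.7 CPM for ITGA6, against 273.5 CPM in FaDu parental, and 680.3 CPM for ITGB4, against 617.3 CPM.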
